A study of Rattus norvegicus with 36 samples.

Results

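The genes described here are 10 myeloid growth factor and monocyte receptor genes, namely the growth factors Csf1, Csf2, Csf3 and Il34, the growth factor receptor chains Csf1r, Csf2ra and Csf2rb, the chemokine receptors Ccr2 and Cx3cr1, and Cx3cl1, the ligand of Cx3cr1. Every probe, other than control spots, that the array files name for 1 of these genes was taken, which gave 12 of 45598 probes and 10 of 25597 gene names. All 10 genes passed the filter on dim probes and were among the 23940 genes tested. Probes were taken by gene name alone, but the genes were chosen with earlier results of these data known. RNA came from the accessory lobe of the lung of female Sprague Dawley rats that were 13 weeks old at instillation. Exposed rats had received DQ-12, a crystalline silica dust, at 10 mg per rat in saline by instillation into the trachea, and vehicle rats had received saline alone. Lungs were taken 1, 30 and 180 days later (D1, D30 and D180), with 6 vehicle and 6 DQ-12 rats at each time point and 1 single-color array per rat. Instillation delivers the whole dose at once and in liquid, and 1 lobe stood for the lung.

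Colony-stimulating factors are secreted proteins that drive the production, survival and activation of myeloid cells. Csf1 (M-CSF) and Il34 share the receptor Csf1r, on which macrophages depend. Csf2 (GM-CSF) acts through its own chain Csf2ra together with Csf2rb, the signalling chain that it shares with the receptors of interleukins 3 and 5, and in the lung it is needed for alveolar macrophages and for the clearance of surfactant. Csf3 (G-CSF) drives the output of neutrophils. Ccr2 brings classical monocytes out of the bone marrow and into inflamed tissue, and Cx3cl1 (fractalkine) is a chemokine tethered to the cell surface whose receptor, Cx3cr1, is carried by monocytes and macrophages.

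Values are log2 signals after quantile normalization, so that a difference of 1 is a 2-fold change, and each gene is read from its probe of highest mean signal. Between 51.4 and 75.5% of probes per array were well above background, the flag set by the image analysis, and no spot was saturated. The number of arrays limits the precision. The median r between arrays was 0.973 to 0.981, depending on the group, and 0 pairs of arrays held identical values. Sftpc, the surfactant protein that marks alveolar type 2 cells, was the brightest gene on 35 of 36 arrays.

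With DQ-12, 2 of the 10 genes moved at D1, 2 at D30 and 5 at D180, and Csf1 was the only 1 of them that rose at all 3 time points, although its rise at D1 did not pass with scan date or slide as a fixed block. A gene is said here to have risen or fallen where its adjusted p was under 0.05 (limma, 2-sided, Benjamini-Hochberg over all genes tested), and to be a DEG where the change was also at least 2-fold. At D1, Csf1 and Ccr2 rose and 8 genes did not pass, while 16.2% of all genes tested passed (7.58% higher and 8.62% lower). At D30, Csf1 and Cx3cl1 rose and 8 did not pass, against 3.98% of all genes (2.74% higher and 1.24% lower). At D180, Csf1, Csf2ra, Ccr2 and Cx3cl1 rose and Il34 fell, so 5 of 10 passed, against 16.8% of all genes (7.82% higher and 9% lower). DEGs among the 10 numbered 0 at D1, 0 at D30 and 2 at D180 (Csf1 and Csf2ra), where 3.07, 1.05 and 3.63% of all genes were DEGs. The groups did not overlap for 2 genes at D1, 2 at D30 and 3 at D180, and over all genes this held for 11.2, 2.36 and 7.26%. The median log2 fold change of the 10 genes was 0.12 at D1, 0.32 at D30 and 0.40 at D180, while that of all genes tested lay between -0.03 and -0.01. These medians include Csf2rb, which was at the edge of detection, and Csf3 and Cx3cr1, whose probes hold repeats described below. At D180 no gene lay near the median, which falls between Csf1r (0.05) and Ccr2 (0.75). Lung RNA was measured in bulk, so a change in the number of cells that make a transcript cannot be told apart from a change in the transcript per cell.

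**Figure D1:**
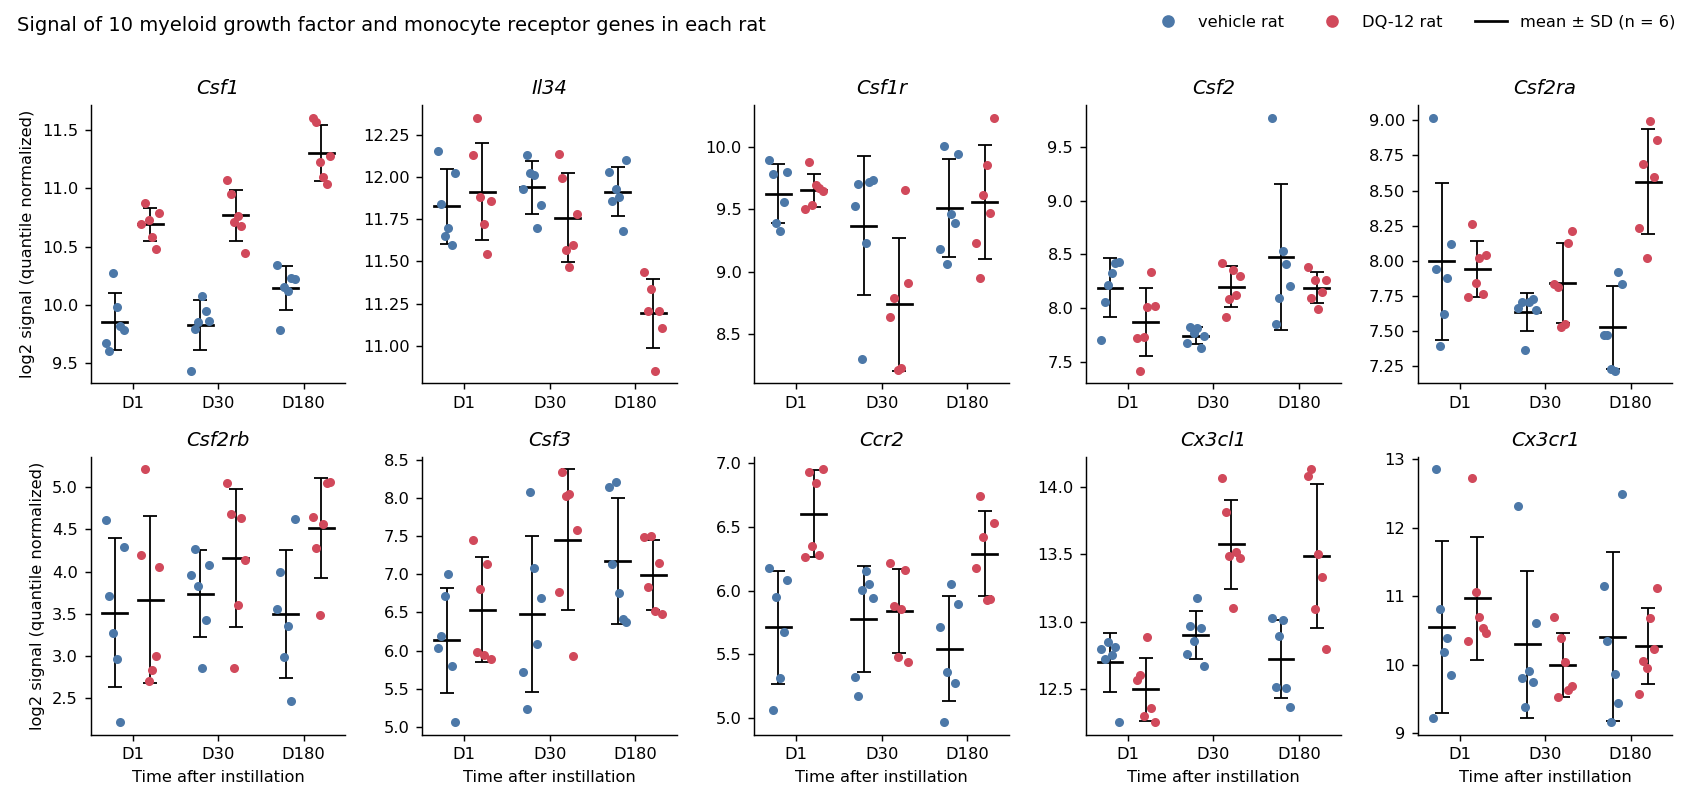
Log2 signal (y axis, quantile normalized) of each of the 10 genes in every rat at D1, D30 and D180, with vehicle rats in blue, DQ-12 rats in red, and the mean ± SD of 6 rats in black. The Csf1 points of DQ-12 rats lie above those of vehicle rats at all 3 time points, the Il34 points drop below them at D180, and Cx3cr1 and Csf3 spread widely in both groups.

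**Figure D2:**
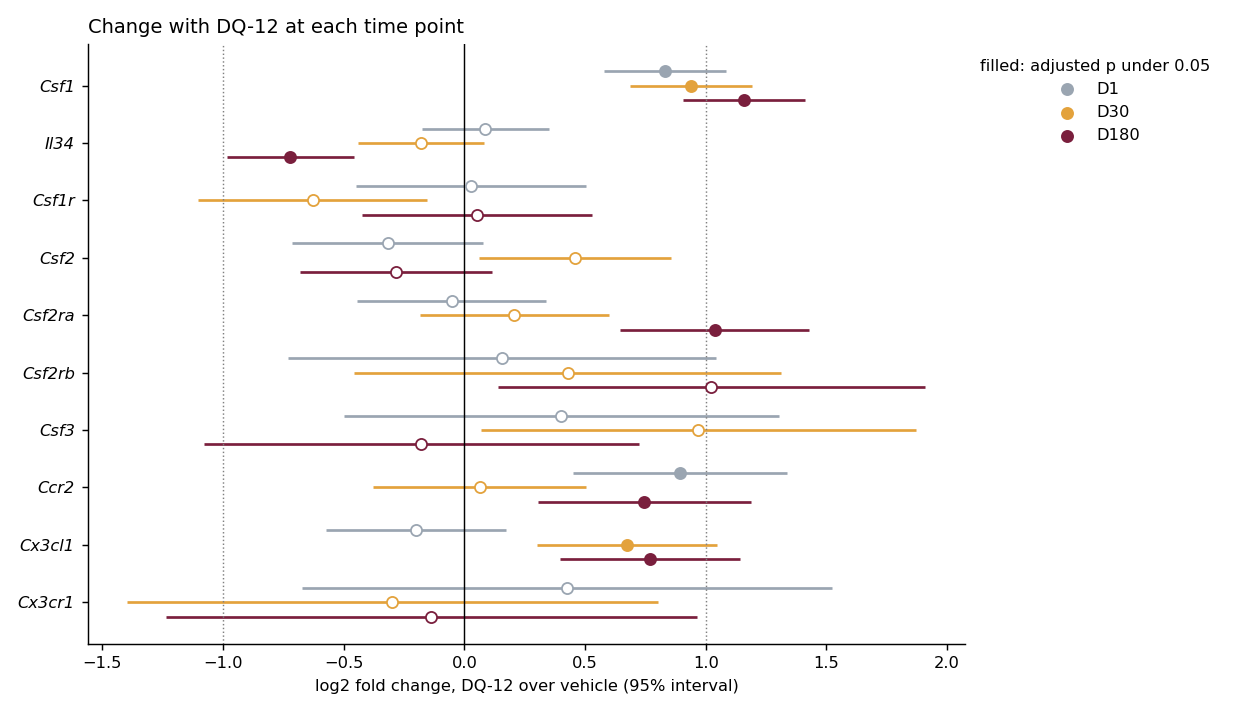
Log2 fold change of DQ-12 over vehicle (x axis) with its 95% interval for each gene at D1, D30 and D180, filled where the adjusted p was under 0.05 and with dotted lines at a 2-fold change. Csf1 lies between 0.83 and 1.16 at the 3 time points, and Il34 reaches -0.72 at D180.

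Csf1 was read by 2 probes, and both rose at every time point. The array file places them on the minus strand of chromosome 2 of the rn4 build, the brighter one at chr2:203292994-203293053 and the dimmer one at chr2:203296273-203296332. Exons of that build were not used here. The middle 30 bases of each 60-base probe are shown because the Csf1 result was read from these stretches of the transcript.
Csf1, brighter probe: acagaagagcaaatccaacccattgcaaga
Csf1, dimmer probe: tcagaaccagggagatttatttggattaaa
At D1 the Csf1 signal ran from 9.60 to 10.27 in vehicle rats (median 9.80) and from 10.48 to 10.87 in DQ-12 rats (median 10.71). Every DQ-12 rat was thus above every vehicle rat, and the difference was 0.83 ± 0.12 (SE, n = 6 per group, adjusted p = 1.29e-05), or 1.78-fold. Only 1 vehicle array at D1 was scanned on the date of the 6 DQ-12 arrays, and with scan date as a fixed block the difference was 0.42 and did not pass (adjusted p = 0.393). At D30 the range was 9.44 to 10.08 in vehicle rats (median 9.86) and 10.45 to 11.07 in DQ-12 rats (median 10.73). The groups were again apart, by 0.94 ± 0.12 (adjusted p = 6.24e-06), or 1.92-fold. At D180 vehicle rats ran from 9.79 to 10.34 (median 10.19) and DQ-12 rats from 11.04 to 11.60 (median 11.25). That difference was the largest of the 3, 1.16 ± 0.12 (adjusted p = 2.71e-08), or 2.23-fold. The exact permutation p was 0.00216 at each time point, the smallest that the divisions of 12 rats can give. All 18 DQ-12 rats were above all 18 vehicle rats, whatever the time point, since the lowest DQ-12 rat was at 10.45 (D30) and the highest vehicle rat at 10.34 (D180). The dimmer probe rose by 0.87 ± 0.23 at D1, 1.02 ± 0.23 at D30 and 1.21 ± 0.23 at D180, with adjusted p of 0.00908, 0.00824 and 0.000251 over 42200 probes. Leaving out any 1 rat left the Csf1 change between 0.78 and 1.21, and without DQ-12 replicate 6 the change at D30 reached 2-fold (1.002).

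Il34, the other ligand of Csf1r, moved the opposite way and late. Its probe, printed 10 times on the array at chr19:40662763-40662822 of rn4 (minus strand), has these middle 30 bases.
Il34: acggaccaattgccatatcttgccacgaca
At D1 the Il34 signal ran from 11.60 to 12.15 in vehicle rats (median 11.77) and from 11.54 to 12.35 in DQ-12 rats (median 11.87). These ranges nearly coincided, and the change was 0.09 ± 0.13 (adjusted p = 0.714). At D30 vehicle rats ran from 11.70 to 12.13 (median 11.97) and DQ-12 rats from 11.47 to 12.14 (median 11.69). Of the DQ-12 rats, 3 were below all vehicle rats, 1 was above them, and the change of -0.18 ± 0.13 did not pass (adjusted p = 0.566). At D180 vehicle rats ran from 11.68 to 12.10 (median 11.91) and DQ-12 rats from 10.85 to 11.44 (median 11.21). All 6 DQ-12 rats were below all 6 vehicle rats, and Il34 fell by 0.72 on the log2 scale (SE 0.13, adjusted p = 0.000101, exact permutation p = 0.00216), so vehicle rats were 1.65-fold higher. The DQ-12 group at D180 also lay below the other 5 groups without overlap with the next, while the other 5 overlapped their neighbours. No rat decided this, since leaving out each in turn gave -0.77 to -0.65.

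The change of Csf1 less that of Il34 in the same rats was 0.74 at D1, 1.12 at D30 and 1.88 at D180. This pair was chosen after its values were seen, so no test is given. Of the DQ-12 rats, 4 of 6 at D1 and 6 of 6 at D30 and D180 had a higher Csf1 signal relative to Il34 than every vehicle rat of their time point. Relative to its own vehicle group, the balance of the ligands thus stood 1.67-fold, 2.17-fold and 3.68-fold further toward Csf1. The D1 value was read mostly across scan dates. Within the date that held both groups at D1 (1 vehicle array), Csf1 differed by 0.42 and Il34 by 0.26, so the balance shifted less there.

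**Figure D3:**
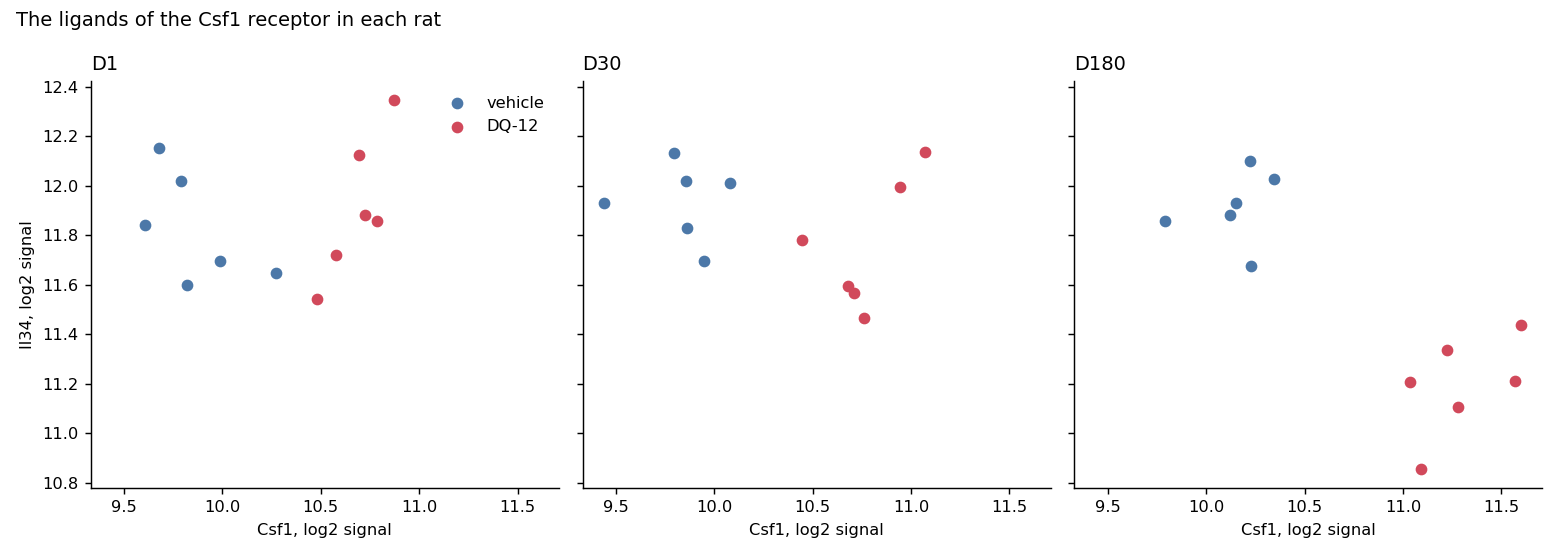
Il34 (y axis) against Csf1 (x axis), both as log2 signal, with 1 point per rat, vehicle in blue and DQ-12 in red, at D1, D30 and D180. DQ-12 rats sit to the right of vehicle rats at each time point and drop below them at D180.

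Csf1r itself did not pass at any time point, with changes of 0.03 ± 0.23 at D1, -0.63 ± 0.23 at D30 and 0.05 ± 0.23 at D180 (adjusted p = 0.960, 0.140 and 0.927). At D1 vehicle rats ran from 9.33 to 9.90 (median 9.67) and DQ-12 rats from 9.51 to 9.87 (median 9.66). At D180 they ran from 9.06 to 10.01 (median 9.42) and from 8.95 to 10.23 (median 9.55). The 95% interval of the change was -0.45 to 0.50 at D1 and -0.42 to 0.53 at D180, so a 2-fold change lies outside it. At D30 vehicle rats ran from 8.30 to 9.74 (median 9.61) and DQ-12 rats from 8.22 to 9.65 (median 8.72). That lower level passed without vehicle replicate 3 (-0.84, adjusted p = 0.0162) or DQ-12 replicate 5 (-0.81, adjusted p = 0.0226), and with array weights (-0.92, adjusted p = 0.00258). Among arrays scanned on the same date, the Csf1r difference at D30 was only -0.02 (4 vehicle against 1 DQ-12) and -0.21 (2 against 5). A different Csf1r probe was well above background on 3 of 36 arrays and says little.

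Csf2ra, the chain that binds GM-CSF, passed at D180 only. The array file gives its probe no position, and the middle 30 bases of that probe identify what was measured.
Csf2ra: ccaagggcattgagcgcctgggtcccccag
At D1 vehicle rats ran from 7.40 to 9.02 (median 7.91) and DQ-12 rats from 7.74 to 8.26 (median 7.93). The DQ-12 range lay inside the vehicle range, where 1 rat, replicate 1, was far above the others, and the change was -0.05 ± 0.19 (adjusted p = 0.899). At D30 the range was 7.37 to 7.73 in vehicle rats (median 7.69) and 7.53 to 8.21 in DQ-12 rats (median 7.82). There 4 DQ-12 rats were above all vehicle rats, but the change of 0.21 ± 0.19 did not pass (adjusted p = 0.702). At D180 it was 7.22 to 7.92 in vehicle rats (median 7.47) and 8.02 to 8.99 in DQ-12 rats (median 8.64). The groups no longer overlapped, and Csf2ra rose by 1.04 ± 0.19 (adjusted p = 0.00016, exact permutation p = 0.00216), or 2.05-fold. The 2-fold threshold was met narrowly. The change dropped to between 0.95 and 0.98 without vehicle replicate 3 or 4 or DQ-12 replicate 4 or 6 of D180, with an adjusted p still under 0.05 each time, and it was 0.83 with another background correction (normexp). The flat D1 value was read mostly across scan dates. Among arrays scanned on the same date, Csf2ra differed by 0.55 at D1 (1 vehicle against 6 DQ-12). At D30 these differences were 0.44 (4 against 1) and 0.25 (2 against 5).

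Csf2, the ligand of that receptor, was read at chr10:39665887-39665946 of rn4 (minus strand) and passed at no time point. At D30, however, its groups did not overlap, with 7.63 to 7.83 in vehicle rats (median 7.75) and 7.92 to 8.42 in DQ-12 rats (median 8.21). The change there was 0.46 ± 0.19, 1.37-fold, with an exact permutation p of 0.00216 but an adjusted p of 0.220 in the model of all 36 arrays. With D30 fitted alone, where the vehicle spread is small, the adjusted p was 0.0350. At D1 Csf2 ran from 7.70 to 8.43 in vehicle rats (median 8.27) and from 7.42 to 8.33 in DQ-12 rats (median 7.87). At D180 it ran from 7.85 to 9.77 (median 8.31) and from 7.99 to 8.39 (median 8.21). Both pairs overlapped, and the changes were -0.32 ± 0.19 and -0.28 ± 0.19 (adjusted p = 0.292 and 0.375).

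Csf2rb, the shared signalling chain, read at chr7:116270933-116270992 of rn4 (plus strand), was at the edge of detection, well above background on 10 of 36 arrays. At D30 it was so on 0 vehicle and 2 DQ-12 arrays, and the bound on the fold was under 1, so no fold is given. At D180 vehicle rats ran from 2.46 to 4.62 (median 3.45) and DQ-12 rats from 3.48 to 5.06 (median 4.61). The difference of 1.02 ± 0.44 rested on 1 vehicle and 3 DQ-12 arrays with signal well above background and did not pass (adjusted p = 0.110). With the replicate number as a block it passed (adjusted p = 0.0355). At D1 the difference was 0.16 ± 0.44 (adjusted p = 0.862), with 2 arrays of each group well above background.

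Csf3, the neutrophil growth factor, read at chr10:87476306-87476365 of rn4 (plus strand), showed a wide spread within groups and no change that passed. Vehicle and DQ-12 rats ran from 5.06 to 7.01 and 5.89 to 7.45 at D1 (medians 6.11 and 6.40), from 5.24 to 8.08 and 5.94 to 8.34 at D30 (medians 6.39 and 7.80), and from 6.37 to 8.21 and 6.48 to 7.50 at D180 (medians 6.95 and 6.99). The groups overlapped at each time point, and the changes were 0.40 ± 0.44, 0.97 ± 0.44 and -0.18 ± 0.44 (adjusted p = 0.604, 0.268 and 0.857). With array weights the D30 value became 1.38 (adjusted p = 0.0214), whereas within the scan dates of D30 it was 0.00 and 0.17.

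The Csf3 probe holds a run of 11 bases of alternating G and T, and the Cx3cr1 probe ends in a run of 22 bases of alternating C and A. Among the other 10 probes of these genes, the longest such run (CA or GT, read along the probe as the file prints it) was 5 bases. Of all 45598 probes, 0.178% hold a CA run of 10 bases or more and 0.191% a GT run of 10 or more. For each of these genes the 30 bases around the run are shown with those of the probes whose signal was most like it over the 36 arrays, with the run in capitals, because sequence is what these probes share.
Cx3cr1: aacagattCACACACACACACACACACACA
LOC102549817: taggtcttCACACACACACACACACACACA
Vom2r18: tcaaatattCACACACACACACACACACAC
Csf3: ggataataaaGTGTGTGTGTGcccagtaaa
Rims3: tgtgtgtctctctctgtgtaTGTGTGTGTG
LOC103693361: tatttgtgtcTGTGTGTGTGcatgtgaggg
The Cx3cr1 signal correlated over the 36 arrays with LOC102549817 at r = 0.997 and with Vom2r18 at r = 0.996, and the Csf3 signal with Rims3 at 0.939 and LOC103693361 at 0.931. Against the 29 other probes with a CA run of 16 bases or more, the median r of Cx3cr1 was 0.971 (0.496 to 0.997), and against the other 42170 probes it was -0.04. Against the 80 other probes with a CA run of 10 bases or more, the median r of Cx3cr1 was 0.771 (-0.24 to 0.997). Of the 20 probes most like Cx3cr1, 20 held a CA run of 10 bases or more and 18 held 1 of 16 or more. Against 84 other probes with a GT run of 10 bases or more, the median r of Csf3 was 0.796 (-0.33 to 0.939), and against the other 42115 probes it was 0.00476. Of the 20 probes most like Csf3, 17 held such a run. These correlations are descriptions over arrays that share slides and labelling. The signal of the Cx3cr1 and Csf3 probes moved with that of probes holding the same repeat, and how much of it came from their own transcripts was not tested. Correlation with repeat probes was not confined to probes that share the repeat. The Csf1r probe (longest run 3 bases) had a median r of -0.69 with the 43 probes holding a GT run of 16 bases or more. For Cx3cr1, whose probe holds CA, that median was -0.57.

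**Figure D4:**
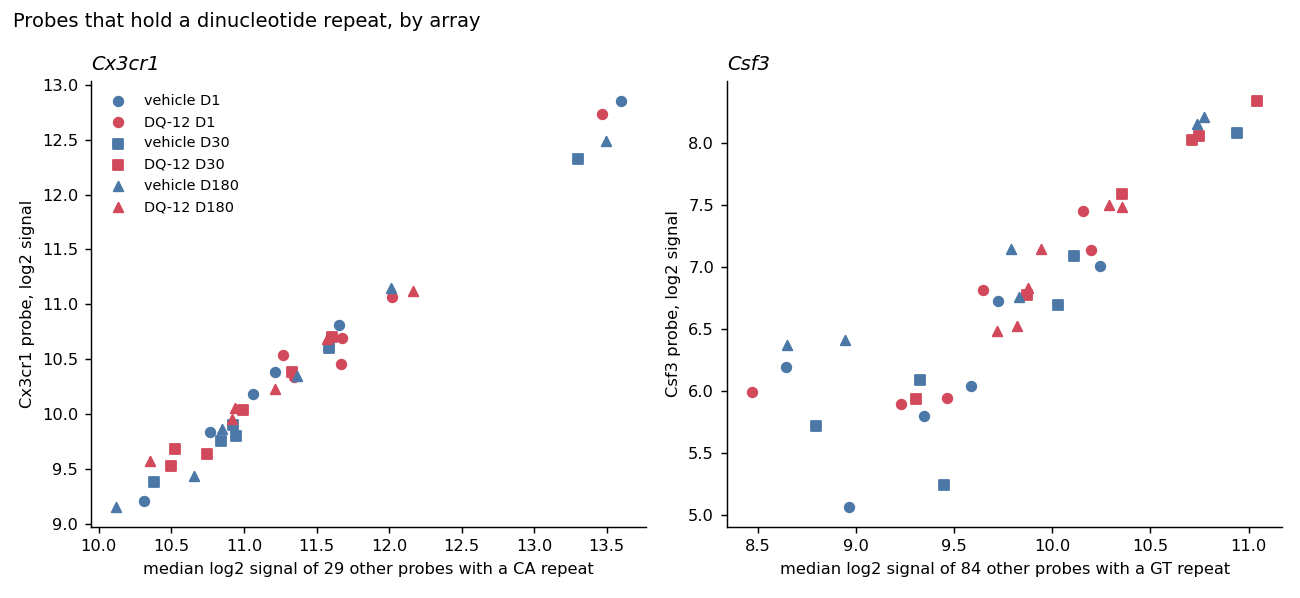
Log2 signal of the Cx3cr1 probe (left, y axis) and the Csf3 probe (right, y axis) on each of the 36 arrays against the median log2 signal of 29 other probes with a CA run of 16 bases or more and of 84 other probes with a GT run of 10 bases or more (x axes). The Cx3cr1 points follow their repeat probes at r = 0.993 and the Csf3 points follow theirs at r = 0.878, with vehicle and DQ-12 arrays along the same band. The run lengths differ between the panels, so these values are not compared.

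Cx3cr1 passed at no time point, with changes of 0.42 ± 0.54, -0.30 ± 0.54 and -0.14 ± 0.54 at D1, D30 and D180 (adjusted p = 0.661, 0.896 and 0.916). Vehicle rats ran from 9.21 to 12.85 at D1 (median 10.29), 9.39 to 12.32 at D30 (median 9.85) and 9.16 to 12.49 at D180 (median 10.10). DQ-12 rats ran from 10.34 to 12.73 (median 10.62), 9.53 to 10.70 (median 9.86) and 9.57 to 11.12 (median 10.14). In 4 of the 6 groups 1 rat lay at 12.32 or above while all other rats lay at 11.15 or below, and no vehicle group was separate from its DQ-12 group. The median change of the 29 CA-run probes was 0.36, -0.34 and -0.22 at the same time points. The GT-run probes (84) had a median change of -0.03, 0.57 and 0.02 at D1, D30 and D180, beside 0.40, 0.97 and -0.18 for Csf3.

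Cx3cl1, the fractalkine ligand, rose at D30 and D180. Its probe was printed 10 times and lies at chr19:10667029-10667088 of rn4 (minus strand). At D1 vehicle rats ran from 12.26 to 12.85 (median 12.78) and DQ-12 rats from 12.26 to 12.89 (median 12.47). The change was -0.20 ± 0.18 and did not pass (adjusted p = 0.510). At D30 vehicle rats ran from 12.68 to 13.18 (median 12.91) and DQ-12 rats from 13.10 to 14.07 (median 13.50). Of the DQ-12 rats, 5 were above all vehicle rats, and the rise was 0.67 ± 0.18 (adjusted p = 0.0295, exact permutation p = 0.00433), or 1.60-fold. At D180 vehicle rats ran from 12.37 to 13.03 (median 12.71) and DQ-12 rats from 12.80 to 14.13 (median 13.42). Again 5 were above all vehicle rats, and the rise was 0.77 ± 0.18 (adjusted p = 0.00271, exact permutation p = 0.0152), or 1.70-fold. The D30 call was lost without vehicle replicate 1 or 6 or DQ-12 replicate 1 or 2, with adjusted p of 0.069 to 0.108, and the D180 call held without each rat. With D180 fitted alone the D180 rise was the same 0.77, with an adjusted p of 0.0591.

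Ccr2, the monocyte receptor, read at chr8:128893805-128893864 of rn4 (plus strand), rose at D1 and again at D180. At D1 vehicle rats ran from 5.06 to 6.18 (median 5.81) and DQ-12 rats from 6.26 to 6.95 (median 6.60). The groups did not overlap, and the rise was 0.89 ± 0.22 (adjusted p = 0.00411, exact permutation p = 0.00216), or 1.86-fold. At D30 vehicle rats ran from 5.17 to 6.15 (median 5.97) and DQ-12 rats from 5.44 to 6.21 (median 5.87). These were nearly the same range, and the change was 0.06 ± 0.22 (adjusted p = 0.962, 95% interval -0.38 to 0.50). At D180 the range was 4.97 to 6.05 (median 5.54) against 5.93 to 6.74 (median 6.30). There 4 DQ-12 rats were above all vehicle rats, and the rise was 0.75 ± 0.22 (adjusted p = 0.0142, exact permutation p = 0.00866), or 1.68-fold. Ccr2 is dim on this array, and with normexp background correction its rises shrank to 0.39 and 0.32 while still passing (adjusted p = 0.00340 and 0.0162). The D1 rise did not pass with scan date as a fixed block (0.65, adjusted p = 0.481), and the D180 rise did not pass with the replicate block (0.75, adjusted p = 0.0530).

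The genes of the Ccr2 ligands moved much further than the receptor. Ccl2, the main attractant of Ccr2-bearing monocytes, rose 5.89-fold at D1, 6.94-fold at D30 and 23.3-fold at D180 (log2 2.56, 2.80 and 4.54, SE 0.24, adjusted p = 3.33e-09, 2.18e-09 and 2.26e-14). Ccl7 rose 6.85-fold, 10.1-fold and 27.8-fold (adjusted p = 2.16e-06, 3.37e-07 and 3.49e-11). Ccl12 rose 3.66-fold, 5.79-fold and 12.4-fold (adjusted p = 0.00165, 0.000163 and 7.99e-08), and it is 1 of the genes the study selected on these same rats, so its direction is not independent evidence. For all 3 ligands, all 6 DQ-12 rats were above all 6 vehicle rats at each time point. The groups did not overlap for 11.2, 2.36 and 7.26% of all genes tested at D1, D30 and D180. At D1 only 1 vehicle array shared the scan date of the 6 DQ-12 arrays. Most D1 calls among the pathway genes, which include these ligands, were lost with slide or scan date as a fixed block.

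The same model tested whether the change of a gene was larger at 1 time point than at another. Between D1 and D180, 3 of the 10 genes passed at an adjusted p under 0.05, where 4.55% of all genes did. The change of Csf2ra was 1.09 ± 0.27 higher at D180 than at D1 (adjusted p = 0.0163), that of Cx3cl1 was 0.97 ± 0.26 higher (adjusted p = 0.0247) and that of Il34 was lower, by -0.81 ± 0.18 (adjusted p = 0.00771). Csf2ra alone also differed by 2-fold or more, which 1.55% of all genes did, and without vehicle replicate 1 of D1 its difference was 0.89. With slide or scan date as a random block the Csf2ra difference did not pass (0.88 and 0.90, adjusted p = 0.0762 and 0.0905), while those of Il34 and Cx3cl1 did. The Cx3cl1 difference missed the threshold without DQ-12 replicate 2 of D180 (0.84, adjusted p = 0.0506). Between D1 and D30 and between D30 and D180, 0 of the 10 genes passed, against 2.18 and 0.246% of all genes (0.944 and 0.138% at 2-fold). The numbers with an unadjusted p under 0.05 were 3 and 5, and 16 and 11.7% of all genes had one. For Csf1 the change was 0.33 ± 0.18 higher at D180 than at D1 (adjusted p = 0.314), which did not pass. The rise of Ccr2 differed by -0.83 ± 0.31 between D1 and D30, which did not pass (adjusted p = 0.155).

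Slide and scan date, as the array headers give them, overlapped unevenly with the groups. The 36 arrays came from 19 slides and 11 scan dates. At D1 only 1 vehicle array was scanned on the date of the 6 DQ-12 arrays, at D30 both dates held both groups, and at D180 2 of 6 dates did, with 4 arrays of each group. Of these 2 dates, the first held 3 arrays of each group and the second 1 of each. The second D180 value of each gene below thus compares 1 rat of each group. Within scan dates, Csf1 differed by 0.42 at D1, 0.92 and 0.82 at D30, and 1.26 and 1.25 at D180. At D180 the Csf1 difference within dates was larger than over all rats, at D30 slightly smaller, and at D1 it was smaller and rested on that 1 vehicle array. Il34 differed within the dates of D180 by -0.62 and -0.65, Csf2ra by 1.00 and 1.12, and Cx3cl1 by 0.79 and 0.81. Cx3cl1 differed within the dates of D30 by 0.67 and 0.57. Ccr2 differed by 0.65 at D1 and by 0.74 and 0.97 at D180. At D30 its values had opposite signs, 0.54 (4 vehicle against 1 DQ-12) and -0.31 (2 against 5). With scan date as a fixed block, the calls of Csf1 and Ccr2 at D1 and of Cx3cl1 at D30 were lost (0.42, 0.65 and 0.61, adjusted p = 0.393, 0.481 and 0.122). With slide as a fixed block, 7 of the 9 calls were lost, and Csf1 kept its calls at D30 (adjusted p = 0.00397) and D180. The single slide that held both groups at D180 held 1 array of each. Its values thus compare 1 rat of each group and cannot test the groups. The changes with slide as a fixed block were 0.42 for Csf1 and 0.51 for Ccr2 at D1 (1 vehicle against 4 DQ-12 arrays) and 0.58 for Cx3cl1 at D30. At D180 they were 1.48 for Csf1, 1.01 for Csf2ra, 1.07 for Cx3cl1, 0.13 for Ccr2 and -0.44 for Il34. As a random block, scan date removed 1 of the 9 calls, Cx3cl1 at D30 (0.63, adjusted p = 0.0546), and slide removed none.

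**Figure D5:**
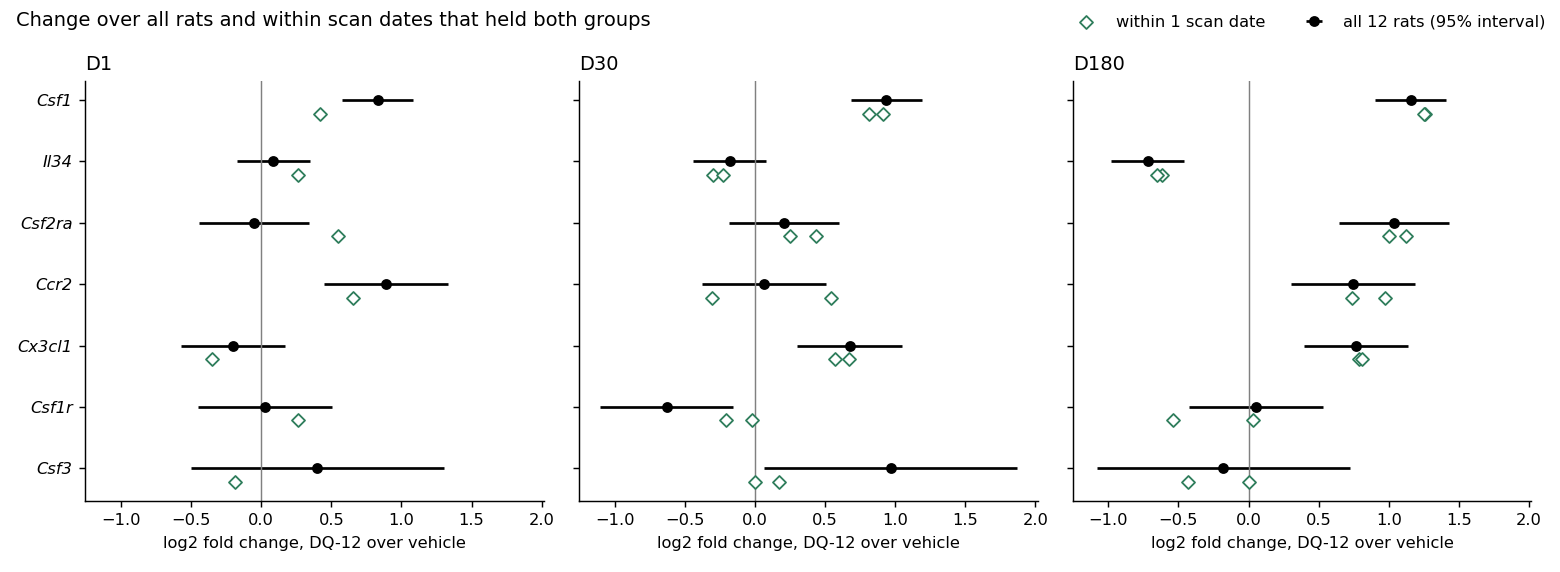
Log2 fold change of DQ-12 over vehicle (x axis) for 7 of the genes at D1, D30 and D180, over all 12 rats of a time point (black, with the 95% interval) and within each scan date that held both groups (open diamonds). The diamonds of Csf1 at D1 and of Csf1r and Csf3 at D30 lie nearer to 0 than the pooled values, and those of Csf1, Il34, Csf2ra and Cx3cl1 at D180 lie close to them. Of the 2 scan dates at D180, 1 held 1 array of each group.

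The wider pathway was described with 35 other genes, of which 33 were tested (Il3 and Il5ra were too dim). Their median log2 fold change was 0.17 at D1, 0.21 at D30 and 0.34 at D180, against -0.01, -0.02 and -0.03 over all genes. At D1, 12 genes rose, 2 fell and 19 did not pass, and 5 of the 33 were DEGs, where 7.58% of all genes rose, 8.62% fell and 3.07% were DEGs. At D30, 6 rose, 0 fell and 27 did not pass, with 4 DEGs, against 2.74%, 1.24% and 1.05% of all genes. At D180, 15 rose, 4 fell and 14 did not pass, with 6 DEGs, against 7.82%, 9% and 3.63%. Beside the 3 Ccr2 ligands, the DEGs included Csf3r, Socs1 and Il5. Csf3r, the receptor of G-CSF, rose 2.67-fold at D1 (adjusted p = 7.68e-05) and 2.16-fold at D180 (adjusted p = 0.000956), with 0.71 ± 0.24 on the log2 scale at D30 (adjusted p = 0.0905). Socs1, a feedback inhibitor of cytokine receptor signalling, rose 2.26-fold at D1 (adjusted p = 0.0350), with 3 of 6 DQ-12 rats above all vehicle rats. Il5, the eosinophil growth factor whose receptor uses Csf2rb, was 3.33-fold lower in DQ-12 rats at D180 (adjusted p = 0.0213), where it was well above background on 5 vehicle and 3 DQ-12 arrays. By role, all 3 Ccr2 ligands rose at each time point. Of 8 myeloid transcription factors, 2 rose and 2 fell at D1, 1 rose at D30, and 5 rose and 1 fell at D180. Of 11 genes of intracellular signalling, 3, 1 and 5 rose at D1, D30 and D180 and 0 fell. Of 9 other ligands and receptors tested, 3 rose at D1, 1 rose at D30, and 2 rose and 3 fell at D180. Of the 2 enzymes that shed fractalkine, 1 rose at D1 and 0 at D30 and D180.

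Markers of several cell types moved along with these genes. Over all genes tested, 7.58, 2.74 and 7.82% rose at D1, D30 and D180, and 8.62, 1.24 and 9% fell. Of 8 macrophage markers, 2 rose at D1, 4 at D30 and 4 at D180, when 1 fell. Of these, Marco and Msr1 are among the genes the study selected on these same rats, so their direction is not independent evidence. Their summed signal was 5375 to 8890 in vehicle and 6354 to 9097 in DQ-12 rats at D1, 4083 to 5250 and 8033 to 11607 at D30, and 5799 to 9387 and 14900 to 24386 at D180. At D30 and D180 no DQ-12 rat overlapped the vehicle rats in this sum. Of 7 neutrophil markers, 0, 2 and 3 rose at D1, D30 and D180, with a sum of 8243 to 16274 in vehicle and 46891 to 67432 in DQ-12 rats at D180, and Elane, a neutrophil granule protease, was well above background on 0 arrays. Of 4 mast cell markers, 4 rose at D180 and 0 before, with a sum at D180 of 737 to 1984 in vehicle and 1203 to 3420 in DQ-12 rats. In the opposite direction, all 5 endothelial and all 4 alveolar type 1 markers fell at D180, the time point at which Il34 fell. Of the alveolar type 1 markers, 1 also fell at D1 and 1 at D30, when Il34 did not pass. The endothelial sum at D180 was 107578 to 134234 in vehicle and 64970 to 110164 in DQ-12 rats, and the alveolar type 1 sum was 264245 to 345801 and 186894 to 223091. Of 5 alveolar type 2 markers, 1 rose and 1 fell at D1, 2 rose and 0 fell at D30, and 2 rose and 0 fell at D180. Among them, Sftpc sat at the top value that quantile normalization gives. It could not rise, and a fall would show only where another gene was brighter. Of 4 fibroblast markers 0 passed at any time point. Of 3 airway markers 1 fell at D1, and of 4 muscle markers 1 fell at D180. Of T cell (6), B cell (4) and NK cell (5) markers, 1 in all rose at D180, a T cell marker. The part of these shifts in the changes of Csf1, Il34, Csf2ra, Ccr2 and Cx3cl1 was not tested.

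The transcripts whose signal was most like each gene over the 36 arrays are given as a description, since all arrays share the same 6 groups and slides. Csf1 was closest to Slamf9 (r = 0.940) and Mmp12 (r = 0.935), Csf2ra to Plaur (0.858) and Gaa (0.841), and Cx3cl1 to Tmem171 (0.911) and Cxcl3 (0.856). Il34 was closest to C1qtnf5 (0.782) and Lamb1 (0.779), and Ccr2 to Cenpn (0.771) and Mefv (0.770). Csf1r was closest to Uqcrc1 (0.919) and Slc38a10 (0.911). Csf2 (LOC103694522 0.725, LOC688691 0.718) and Csf2rb (LOC108348812 0.608, Hvcn1 0.607) had no close match.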

How the data were processed

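Lung RNA of 36 rats (6 per group) was hybridized to 1 single-color Agilent array per rat. Per the labels, the authors extracted the deposited intensity of each spot with Agilent Feature Extraction 12.0.1.1, which also corrected the background. The authors' deposited log2 values match the 75th percentile scaling of those intensities, centered on the median of each probe (r = 0.99997). Here, log2 of the background-corrected intensity was used. Outlier spots (232 to 596 per array) were dropped, spots of a probe were averaged, and probes above the 95th percentile of 308 negative controls on 6 arrays or more were kept (42200) and quantile normalized. The brightest probe stood for a gene.

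Using limma 3.58.1 (R 4.3.3, statmod 1.5.0), 1 mean per group was estimated from the 36 arrays together. Time points were compared as interactions, and exact permutation tests over all divisions of 12 rats were 2-sided. The authors' methods mention a batch correction without naming its variable. No batch term entered the model here, and slide and scan date were alternatives. Alternatives changed the scaling, background, filter, probe rule, threshold, time points in the fit, block (slide, scan date, replicate number), array weights and rats. The fit was tested on simulated data with independent noise on each array and no slide or scan date effect. That test cannot address batches, since the real arrays had a correlation of 0.388 within slides and 0.251 within scan dates. Figures used matplotlib 3.10.9 with numpy 2.4.6 and pandas 2.3.3.

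The genes and lists were chosen with earlier results of these data known. Named are all member genes, pathway genes that were DEGs (1 is not reported here), marker lists by counts, and per gene the 2 most correlated genes. Rats were not treated as paired by replicate number in the main model. The r of deviations was -0.13 to 0.22 over 18 same-numbered pairs (6 over 0.1). Pairs of unlike number were not computed, so these values cannot decide whether the numbers pair the rats. A rat genome, exon annotation and protein sequences were not used here.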

Additional observations from a re-analysis of the deposited data

Results flagged for a closer look

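Of 60 sets of 6 rats (10 genes in 6 groups), 5 held a rat far from the others, with a gap to its nearest neighbour that was a large share of the group's range. Chance flags about 1 in 20 groups. Csf2 in vehicle rats at D180 had its highest value in replicate 1, 9.77 against 8.54 for the next, a gap of 0.643 of the range. Csf1r in vehicle rats at D30 had its lowest value in replicate 3, 8.30 against 9.23 (0.647 of the range), and the same rat was lowest for Csf2ra, 7.37 against 7.65 (0.777). Cx3cr1 in DQ-12 rats at D1 was highest in replicate 2, 12.73 against 11.06 (0.697). Cx3cl1 in vehicle rats at D1 was lowest in replicate 6, 12.26 against 12.72 (0.782).

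For 3 genes the change with DQ-12 differed between D1 and D180 by the interaction test in limma. The difference in log2 fold change was 1.09 for Csf2ra, -0.81 for Il34 and 0.97 for Cx3cl1. With scan date as a fixed block the differences were 0.49, -0.89 and 1.15, and none passed (adjusted p = 0.658, 0.168 and 0.169). With scan date as a random block they were 0.90, -0.85 and 1.02 (adjusted p = 0.0905, 0.0198 and 0.0419).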

How the results depend on the processing

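Over the 30 changes of a gene at a time point and the 30 differences between time points, 1930 alternative values were computed (1080 of them with a rat left out). A called value counted as the same if it still passed in the same direction. Uncalled values, and those without a test, counted as the same if they moved by less than the gene's largest group SD. That SD was up to 1.25 (Cx3cr1), so an uncalled value could change sign and still count. By this rule 1863 were the same, 26 no longer passed, 15 newly passed, 26 moved by more than that SD and 0 called values changed sign. Counts below are of DEGs unless stated. With normexp background correction, 1 of the 10 genes was a DEG at D180 and 0 differed between D1 and D180. With slide as a fixed block there was 1 at D180, 0 differed between D1 and D180, 1 pathway gene was called at D1, and 2 of the 30 changes passed an adjusted p of 0.05, against 9. With scan date as a fixed block, 1 pathway gene was called at D1 and 0 of the 10 genes differed between D1 and D180. Array weights called 1 gene at D30 (Csf3) and 1 difference between D30 and D180 (Csf1r). With the adjusted p alone, 2, 2 and 5 of the 10 genes and 14 and 19 pathway genes (D1 and D180) were called, and 3 genes differed between D1 and D180. At 1.5-fold these were 2, 2 and 5, 8 and 11, and 3. Leaving out each rat gave 0 to 1 gene at D30, 1 to 2 at D180 and 0 to 2 differing between D1 and D180. The replicate block kept 2 genes at D180 and changed the calls of Ccr2 at D180 (0.75, adjusted p = 0.0530) and Csf2rb at D180 (1.02, adjusted p = 0.0355). Each time point fitted alone gives no difference between time points. For dim genes (Csf2rb, Ccr2), signal over background limits the fold changes, and at D1 a single vehicle array shared a scan date with DQ-12 arrays. At D180 the only slide that held both groups held 1 array of each, so values there with slide as a fixed block compare 1 rat of each group.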
